A study of Mus musculus with 3 samples.

Results

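RNA of sorted endothelial cells was compared between a mouse line that lacks Scl (SclKO) and the library labelled Gata12KO, at 1 library each, with no wild type (WT) value in the ratio. These are 2 of the 3 libraries of the study. Of 23397 genes, 10743 were tested, namely those with at least 1 FPKM (a level scaled to transcript length and to the mapped fragments of the library) in either library and exons that sum to at least 300 nt. Each ratio below is the log2 of (FPKM + 1) in the library labelled Gata12KO over (FPKM + 1) in SclKO, so a positive value is a higher level in the former. A gene is called higher or lower where it differs by 2-fold or more on this scale and the bounds deposited with its 2 values are apart. No test was possible at 1 library each, so higher and lower describe these libraries, and the bounds in parentheses hold counting error alone.

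The study set out to find genes that Scl or the GATA factors control. Embryonic stem cells of each line were kept with LIF and serum, then cultured for 4.75 days as embryoid bodies, floating aggregates in which stem cells differentiate, in medium with serum, transferrin, ascorbic acid and monothioglycerol. Dissociated cells were sorted as Tie2+CD31+CD41-, a gate meant to keep endothelium and leave out CD41-bearing blood progenitors. The genotypes are given as wild type, SclKO and Gata1&2KO. Both knockouts are constitutive stem cell lines, and no number of clones or cultures is given in the sources used here.

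Scl, whose current gene symbol is Tal1, is a helix-loop-helix transcription factor that binds DNA with E proteins and, in blood progenitors, with GATA factors, Lmo2 and Ldb1. Hemangiogenic mesoderm can give endothelium and blood, while neighbouring mesoderm gives heart muscle, smooth muscle and mesenchyme. Endothelial cells are held together by VE-cadherin and are kept in their fate by ETS and SoxF factors, whereas mesenchymal cells secrete fibrillar collagen and use Snail and Twist factors.

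The targeted genes were read first. Tal1 had 1.59 FPKM in SclKO (1.35 to 1.83) and 38.7 in the library labelled Gata12KO (37.8 to 39.6). Gata1 was listed at 0 in SclKO and had 5.66 FPKM (5.13 to 6.18) in the library labelled Gata12KO, and Gata2 had 5.81 (5.29 to 6.33) and 44.9 (43.9 to 46.0). The Gata1 and Gata2 levels therefore do not show the knockout named in the label. Each value covers a whole transcript, in which a deleted exon would not show, so directions below belong to the library labelled Gata12KO and not to a loss of GATA factors. Of the genes behind the sort, Tek (Tie2) had 42.4 and 62.9 FPKM and Pecam1 (CD31) 50.4 and 66.5, in SclKO and the library labelled Gata12KO in turn. Transcripts of both were thus present on each side, while the sort itself reads surface protein. Itga2b, which encodes CD41, had 0.333 FPKM in SclKO, 17.6 in the library labelled Gata12KO and 22.8 in WT, although the gate was CD41-.

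Promoter windows of members at the far ends of the split are shown first, so that the starts of genes called in opposite directions can be compared. They are the 250 bases before the RefSeq start of 4 genes, on build GRCm38.p6, which is not the build of the deposited files. Calcrl (chr2:84425267-84425516, reverse strand) and Ushbp1 (chr8:71395802-71396051, reverse strand) are among the endothelial receptors and regulators with the highest ratios, and Col3a1 (chr1:45311288-45311537, forward strand) and Acta2 (chr19:34255374-34255623, reverse strand) have the lowest ratios of the matrix and contractile lists. Capitals mark matches on either strand to the ETS core motif, spelled AGGAAG. They also mark the GATA site motif, which was searched as AGATAA on both strands. The E-box bound by Scl with its E protein partners was searched as CAGATG. The E-box bound by Snail and Zeb factors was searched as CAGGTG.
Calcrl: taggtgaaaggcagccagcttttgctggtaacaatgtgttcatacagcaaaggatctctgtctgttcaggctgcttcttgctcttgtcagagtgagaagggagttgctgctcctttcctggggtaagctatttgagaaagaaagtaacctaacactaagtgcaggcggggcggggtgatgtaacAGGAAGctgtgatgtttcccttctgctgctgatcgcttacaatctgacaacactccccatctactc
Ushbp1: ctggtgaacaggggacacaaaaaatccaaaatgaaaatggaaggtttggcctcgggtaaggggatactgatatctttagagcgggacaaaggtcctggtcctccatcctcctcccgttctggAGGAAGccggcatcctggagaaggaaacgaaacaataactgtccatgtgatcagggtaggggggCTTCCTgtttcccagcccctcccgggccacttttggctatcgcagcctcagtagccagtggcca
Col3a1: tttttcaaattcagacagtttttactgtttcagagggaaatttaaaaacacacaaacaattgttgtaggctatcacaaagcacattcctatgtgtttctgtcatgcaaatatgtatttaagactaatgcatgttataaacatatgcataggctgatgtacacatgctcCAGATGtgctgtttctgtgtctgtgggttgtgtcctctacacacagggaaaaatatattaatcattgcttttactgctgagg
Acta2: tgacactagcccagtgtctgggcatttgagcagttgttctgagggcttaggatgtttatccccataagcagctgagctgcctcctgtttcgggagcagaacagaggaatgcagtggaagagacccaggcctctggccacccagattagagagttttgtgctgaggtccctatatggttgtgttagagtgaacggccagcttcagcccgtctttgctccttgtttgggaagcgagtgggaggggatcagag
Calcrl holds 1 match to AGGAAG, Ushbp1 holds 2, Col3a1 holds 1 match to CAGATG, and Acta2 holds none of these letters. Windows of 4 more called members were drawn but are not printed. Lyl1 and F11r, both higher, hold 0 matches to AGGAAG and 1 to CAGGTG each. Twist2 and S100a6, both lower, hold none of these motifs. Over all members with a RefSeq window, AGGAAG stood in 16 of 34 windows (47.1%) of 27 endothelial genes that were higher and in 9 of 32 windows (28.1%) of 29 mesenchymal genes that were lower. It stood in 27.1% of the 10908 windows of tested genes. AGATAA stood in 3 of the 34 windows (8.82%) and 2 of the 32 (6.25%), against 5.44% over tested genes. CAGATG stood in 6 (17.6%) and 6 (18.8%), against 9.42% over tested genes. CAGGTG stood in 6 (17.6%) and 2 (6.25%), against 14.1%. A longer motif that joins an E-box to a GATA site was searched too. It stood in 1 of the 34 windows (2.94%) and 0 of the 32 (0%), against 0.27%, so its share rests on a single window. Each motif was counted apart from the others, so partial overlaps count for both. These shares describe letters in short windows, and none was tested.

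Of 10743 genes tested, 371 (3.45%) were higher in the library labelled Gata12KO and 410 (3.82%) were lower, 7.27% together, so 52.5% of the calls were lower. The median ratio of all tested genes was -0.06. The balance between the directions moved with the scaling. With equal sums over transcripts of 300 nt or longer, 497 genes were higher and 321 lower (39.2% lower), and the median moved to 0.08. With equal sums over every entry the counts were 2143 and 114 (5.05% lower) with a median of 0.67, a sum that in SclKO rested to 72.4% on entries under 300 nt. On that last scale 23 of the 52 list medians changed sign, among them those of the smooth muscle, cardiac contractile, early mesoderm, Wnt and imprinted lists, while 5 did so relative to the median of all genes, so list medians are given here to be read against that median. Large ratios leaned to the higher side in the deposited scale. At 4-fold or more, a log2 ratio past 2, there were 79 higher and 43 lower genes, and past 3 there were 14 and 4. Reads on entries, as implied by the deposited bounds, came to 14.6M in SclKO and 25.0M in the library labelled Gata12KO. Ratios followed transcript length, with a median of -0.26 for exon sums of 312 to 1251 nt and 0.06 for 5647 to 23495 nt. Genes of 312 to 1251 nt held 100 lower and 37 higher calls. Lower calls had a median exon sum of 2159.5 nt and higher calls 3152 nt. The tested endothelial and mesenchymal members had median lengths of 3559.5 and 3359 nt. Of cytosolic ribosomal proteins 81 of 85 lay below 1 FPKM in every library, so a value of 0 in these files need not mean a silent gene.

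Endothelial and mesenchymal genes parted in opposite directions. Of 123 measured members of 6 endothelial lists, 110 were tested, of which 49 were higher in the library labelled Gata12KO, 6 lower and 55 between, with a median ratio of 0.80. Of 133 measured members of 5 mesenchymal lists, 85 were tested, of which 3 were higher, 44 lower and 38 between, with a median of -1.06. No gene is in both sets. Against the 3.45% and 3.82% over all tested genes, 44.5% of endothelial members were higher and 51.8% of mesenchymal members lower. Some higher endothelial members, such as Stab1 and Reln, lay below 1 FPKM in SclKO and passed the filter only through the library labelled Gata12KO. Some lower mesenchymal members, such as Sox9 and Six2, lay below 1 FPKM in that library and passed only through SclKO. With untested members counted too, the endothelial median was 0.64 and the mesenchymal one -0.47. The members were chosen with earlier results of these data known, so the contrast between the sets is a description and not independent support. At the edge of the 2-fold limit, Rasip1 (1.02) and Lfng (1.07) lay just inside on the endothelial side and Cav1 (0.98) and Gngt2 (0.96) just outside. On the other side S100a4 (-1.04) and Lrp1 (-1.06) lay inside and Ltbp1 (-0.98) and Fbln1 (-0.91) outside. In a sorted pool, fewer cells of a type and less RNA per cell cannot be told apart.

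**Figure D1:**
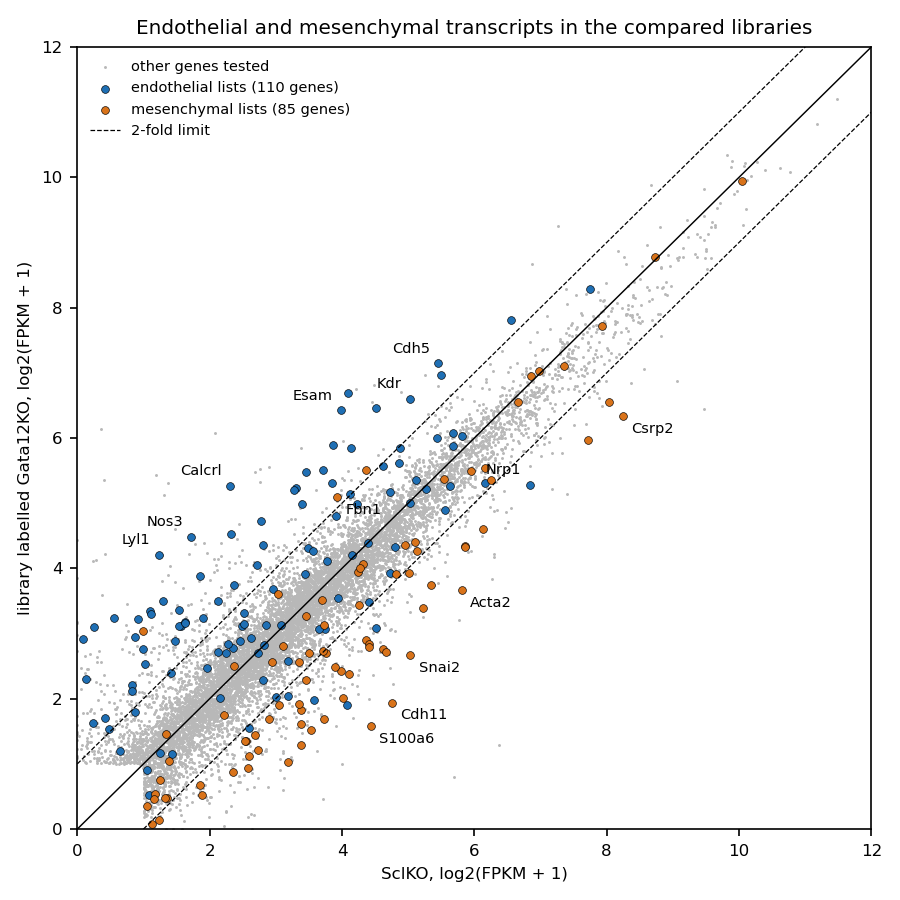
Level of each tested gene in SclKO (horizontal) and in the library labelled Gata12KO (vertical), both as log2(FPKM + 1), 1 library each. Of the 110 endothelial members (blue) 49 are called higher and lie above the upper dashed 2-fold line, and of the 85 mesenchymal members (orange) 44 are called lower and lie below the lower line.

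Endothelial transcription factors gave the highest median of the 6 endothelial lists, at 1.53, with 14 of 21 tested members higher and 0 lower. Lyl1, a close relative of Scl, had 1.35 FPKM in SclKO (1.00 to 1.69) and 17.5 in the library labelled Gata12KO (16.6 to 18.5), a ratio of 2.98. The ETS factors Ets2 (16.0 and 102 FPKM), Fli1 (12.2 and 44.8), Ets1 (9.58 and 30.6) and Erg (2.11 and 8.09) were all higher. So were the SoxF factors Sox7 (21.9 and 87.0), Sox17 (2.09 and 7.93) and Sox18 (5.60 and 15.7). The homeobox factor Hhex (8.67 and 35.8), the endocardial factor Nfatc1 (4.01 and 22.2), the repressor Bcl6b (ratio 2.03), Tcf15 (2.18) and Mef2c (1.42) were higher too. Etv2, the ETS factor that starts the endothelial programme, went the other way without passing the limit, with 70.4 FPKM in SclKO (67.0 to 73.8) and 38.7 in the library labelled Gata12KO (36.8 to 40.6). The flow-responsive Klf2 had a ratio of 0.01.

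Junction and surface proteins had 11 of 26 tested members higher and 0 lower, with a median of 0.78. VE-cadherin (Cdh5), the adhesion molecule of endothelial junctions, had 42.9 FPKM in SclKO (41.6 to 44.2) and 141 in the library labelled Gata12KO (139 to 143), against 116 in WT. Esam, another junction protein, had 14.9 (13.7 to 16.0) and 85.2 (83.2 to 87.2), against 88.0 in WT. Icam2 (13.6 and 58.3 FPKM), F11r (8.93 and 36.8) and Egfl7 (92.6 and 223), a secreted endothelial protein, were higher as well. Higher ratios were also found for Cd93 (2.25), Mmrn2 (1.96), the thrombin-binding thrombomodulin Thbd (1.77), the tight-junction protein Cldn5 (1.58), Adgrl4 (1.55) and Ecscr (1.47). The list was not uniform. Pecam1 lay between at 0.39, Cd34 was level at 5.61 and 5.50 FPKM, and Tmem204 (-0.92), Adgrf5 (-0.79) and Plvap (-0.68) had negative ratios within the limit.

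Receptors split, with 7 of 18 tested members higher, 2 lower and a median of 0.64. Calcrl, which with Ramp2 forms the adrenomedullin receptor, had 3.96 FPKM in SclKO (3.60 to 4.31) and 37.6 in the library labelled Gata12KO (36.8 to 38.4), a 9.50-fold difference, while Ramp2 itself had a ratio of 0.54. The VEGF receptors Kdr (31.6 and 96.3 FPKM) and Flt1 (6.03 and 19.6) were higher, and here the library labelled Gata12KO also stood above the WT levels of 42.1 and 8.72. Tie1 had 16.6 and 56.4 FPKM, the phosphatase Ptprb a ratio of 2.19, the sphingosine receptor S1pr1 2.08 and the apelin receptor Aplnr 1.47. The lower members were Nrp1, a co-receptor of VEGF and semaphorins, with 113 FPKM in SclKO (111 to 115) and 38.0 in the library labelled Gata12KO (37.3 to 38.8), and the endothelin receptor Ednrb with 10.9 and 2.94. Nrp2 (-0.47) and Eng (-0.66) lay between.

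Signalling and cytoskeletal regulators had 8 of 22 tested members higher, 0 lower and a median of 0.77. Nitric oxide synthase Nos3 had 2.31 FPKM in SclKO (1.98 to 2.63) and 21.4 in the library labelled Gata12KO (20.8 to 22.1). Ushbp1 had 0.464 (0.324 to 0.604) and 8.47 (8.02 to 8.92). Myct1 (0.891 and 8.31 FPKM), the Rap exchange factor Rapgef5 (1.45 and 10.3) and the actin-associated Afap1l1 (9.94 and 43.7) were also higher. In WT, Myct1 had 23.6 FPKM and Afap1l1 46.9, above both libraries.

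Arterial and venous lists both held more higher than lower members. In the arterial and Notch list 6 of 17 tested members were higher and 2 lower (median 0.46), and in the venous and lymphatic list 4 of 10 were higher and 2 lower (median 0.77). Among Notch genes, the target Nrarp (1.89 and 9.32 FPKM), the ligands Jag2 (1.04 and 4.76) and Dll4 (0.337 and 2.25), the target Hey1 (2.72 and 8.47), the receptor Notch4 (0.778 and 3.36) and the modifier Lfng were higher. Notch1 (-0.01) and the connexin Gja4 (0.05) were level, and the arterial ephrin Efnb2 had -0.39. The netrin receptor Unc5b (21.8 and 7.52 FPKM) and Foxc1 (5.07 and 1.93) were lower. On the venous side, the scavenger receptor Stab1 had 0.188 FPKM (0.126 to 0.25) and 7.57 (7.29 to 7.85), Reln 0.0615 (0.0340 to 0.0890) and 6.57 (6.36 to 6.79), and the venous factor Nr2f2 3.38 and 10.3. The lymphatic factor Prox1 (8.05 and 3.13) and the chemokine scavenger Ackr3 (15.9 and 2.76) were lower.

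**Figure D2:**
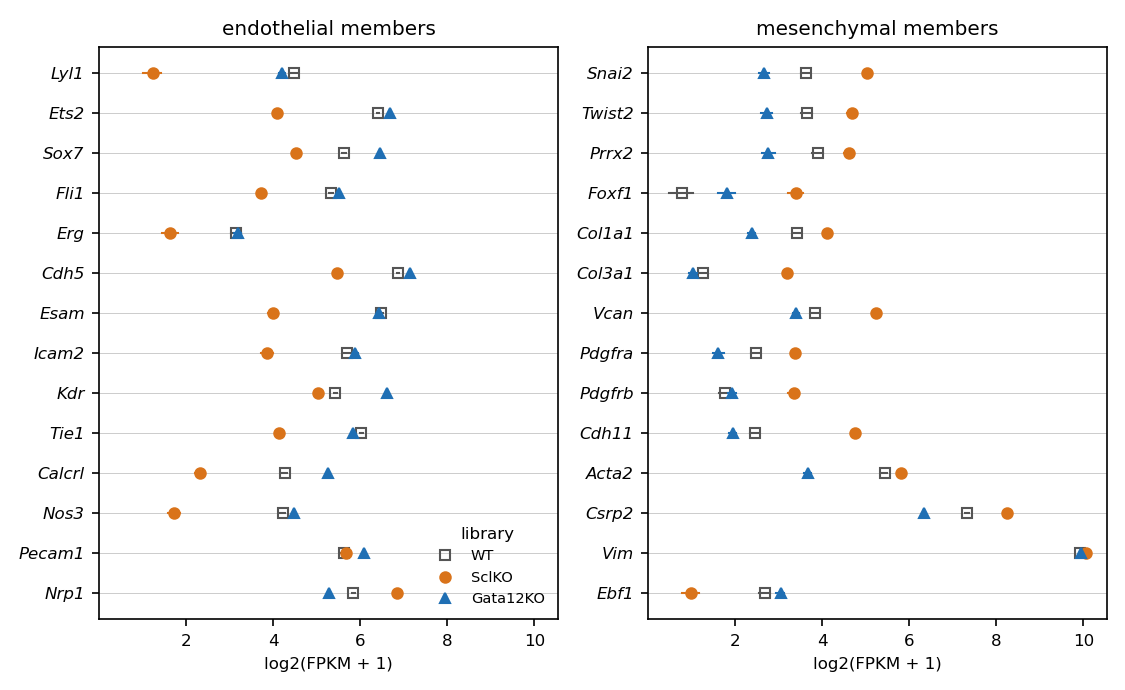
Level, as log2(FPKM + 1), of 14 endothelial (left) and 14 mesenchymal (right) members in WT, SclKO and the library labelled Gata12KO, 1 library each, with short lines for the deposited bounds. Endothelial members such as Lyl1, Esam and Nos3 sit low in SclKO and close together in the other libraries, whereas mesenchymal members such as Twist2 and Vcan are ordered SclKO, WT, then the library labelled Gata12KO.

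Mesenchymal transcription factors had 7 of 16 tested members lower, 1 higher and a median of -0.82. Snai2 (Slug), a repressor of cadherin genes in epithelial to mesenchymal change, had 31.8 FPKM in SclKO (30.2 to 33.4) and 5.36 in the library labelled Gata12KO (4.88 to 5.84). Twist2 (24.5 and 5.61 FPKM), Prrx2 (23.6 and 5.78), Foxf1 (9.46 and 2.53), Msx2, Sox9 and Six2 were lower too, the last 3 with ratios of -1.41, -1.35 and -1.18. The related Snai1 (-0.60), Twist1 (-0.79) and Zeb1 (-0.26) did not pass the limit, and Zeb2 had a positive ratio of 0.56. Ebf1 was the higher member, with 0.985 FPKM in SclKO (0.724 to 1.25) and 7.23 (6.70 to 7.75). A further 12 of the 28 members of this list were below 1 FPKM in both libraries, among them Prrx1, a factor of limb mesenchyme (0.576 and 0.276 FPKM).

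The matrix list had 14 of 25 tested members lower, 1 higher and a median of -1.15. Col3a1, a fibrillar collagen, had 8.06 FPKM in SclKO (7.60 to 8.52) and 1.04 in the library labelled Gata12KO (0.914 to 1.16). Col1a1 (16.2 and 4.19 FPKM), Col1a2 (ratio -1.56), the collagen processing protein Pcolce (-2.08), the microfibril protein Mfap4 (-2.03), Fbln2 (10.5 and 1.88 FPKM) and the proteoglycan Vcan (36.4 and 9.53 FPKM) were lower, and the hyaluronan synthase Has2 lay near the limit at -1.08. Fibronectin (Fn1), which endothelium also makes, was level at 422 and 438 FPKM, and fibrillin Fbn1 was higher (14.2 and 33.0). Over the whole collagen family, 8 of 18 tested genes were lower and 1 higher. The higher member was Col18a1, a basement membrane collagen, with 37.3 FPKM (36.0 to 38.5) and 124 (123 to 126). The basement membrane chains differed among themselves, since Col4a5 (5.38 and 0.165 FPKM) and Col4a6 (7.34 and 1.10) were lower while Col4a1 and Col4a2 had ratios of 0.39 and 0.33.

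Receptors and adhesion proteins of mesenchyme had 13 of 21 tested members lower and 0 higher, with a median of -1.10. Cdh11, a cadherin of mesenchymal cells, had 25.9 FPKM in SclKO (25.0 to 26.9) and 2.84 in the library labelled Gata12KO (2.60 to 3.07), opposite to VE-cadherin. S100a6, a calcium-binding protein, had 20.7 and 1.98 FPKM. The PDGF receptors Pdgfra (9.36 and 2.06) and Pdgfrb (9.16 and 2.79), Fgfr1 (57.0 and 19) and the Wnt receptor Fzd2 (20.1 and 6.12) were lower. Vimentin (Vim), an intermediate filament that endothelium shares, was close to level at 1059 and 981 FPKM. N-cadherin (Cdh2) had a ratio of -0.24.

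Contractile genes of smooth muscle and pericytes had 8 of 18 tested members lower, 1 higher and a median of -0.55. Smooth muscle actin Acta2 had 55.1 FPKM in SclKO (52.8 to 57.3) and 11.7 in the library labelled Gata12KO (10.9 to 12.5), and the WT level of 42.1 lay nearer SclKO. Csrp2 (304 and 79.8 FPKM), Tpm2 (15.3 and 3.04), Myl9 (4.96 and 0.911) and the pericyte marker Rgs5 (39.6 and 12.4) were lower. Smtn was higher (19.7 and 44.8), and the late smooth muscle myosin Myh11 stayed under 0.1 FPKM in both, at 0.0415 and 0.0381. In the epicardial and mesothelial list, Hand1 (209 and 61.7 FPKM) and Lrrn4 (-1.20) were lower, 0 of 6 tested members were higher, and Wt1, Tbx18 and Upk3b, which define that tissue, lay below 0.3 FPKM on both sides.

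**Figure D3:**
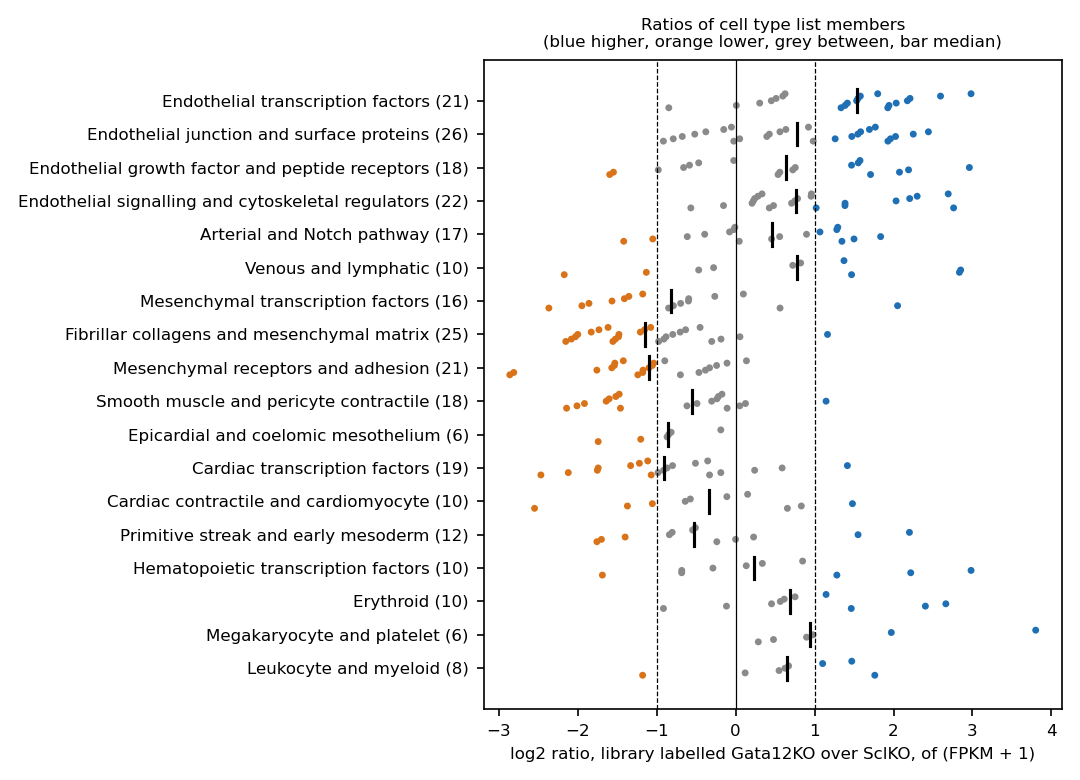
Ratio of every tested member of the endothelial, mesenchymal, cardiac, early mesoderm and blood lists (number tested in parentheses). Blue points are called higher, orange points lower, grey points neither, and the black bar is the list median. Medians run from 1.53 in endothelial transcription factors to -1.15 in mesenchymal matrix.

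Cardiac regulators had negative ratios for the most part, and most cardiac muscle genes were too low to be tested. Of 19 tested cardiac transcription factors 8 were lower and 1, Mef2c, was higher, with a median of -0.91. Irx3 had 16.9 FPKM in SclKO (15.9 to 18.1) and 2.24 in the library labelled Gata12KO (1.96 to 2.55), Tbx2 8.34 and 1.15, and Irx5 a ratio of -1.33. Of 30 contractile and cardiomyocyte genes only 10 could be tested, with 3 lower (30%), 1 higher (10%) and a median of -0.34. Troponin Tnni1 (26.3 and 3.68 FPKM) and Tnnt2 (7.03 and 2.86) were lower and Cox7a1 was higher (6.07 and 18.7). Myosins that define a beating myocyte, Myh6 (0.0334 and 0.149) and Myh7 (0.124 and 0.351), were near 0 in both libraries, and Myl2 was listed at 0 in both.

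Of 12 tested primitive streak and early mesoderm genes, 3 were lower, Pdgfra, Bmp4 (22.7 and 6.30 FPKM) and Cdx2 (16.7 and 5.71), and 2 higher, Hoxb1 and Fgf8 (1.57 and 6.54). These are shares of 25% and 16.7%, against 3.82% and 3.45% over all tested genes.

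Of 92 measured members of 4 blood lists 34 were tested, of which 12 were higher and 2 lower, with a median of 0.65. These are shares of 35.3% and 5.88%, against 3.45% and 3.82% over all tested genes. Members such as Itga2b and F10, below 1 FPKM in SclKO, passed the filter only through the library labelled Gata12KO. Over all 92 measured members the median was 0.06, and over all measured genes it was 0. Summed over each list, in SclKO and the library labelled Gata12KO in turn, erythroid genes came to 74.7 and 121 FPKM, megakaryocyte and platelet genes to 169.7 and 338, leukocyte and myeloid genes to 84.7 and 92.2, and hematopoietic transcription factors to 124 and 132. F2r, a thrombin receptor that was not called (0.90), made up 166 and 310 FPKM of the platelet sums, and the other 20 members came to 3.89 and 28.6. Without Car2, the other 21 erythroid genes came to 68.3 and 74.8. Itga2b led the ratios at 3.80, followed by Lyl1 at 2.98, which is in an endothelial list too, carbonic anhydrase Car2 (6.44 and 46.1 FPKM), the embryonic globin Hbb-bh1 (0.258 and 5.66), the Scl complex corepressor Cbfa2t3 (0.664 and 6.74), coagulation factor F10 (0.215 and 3.77) and the granule enzyme Mpo (0.286 and 3.37). Globin genes have near-identical copies, so their split of reads is uncertain. Several defining blood genes stayed near 0 on both sides, namely Ptprc (0 and 0.00396 FPKM), Klf1 (0.106 and 0.0727) and Hba-x (0.0881 and 0). Gata3 (16.3 and 4.37) and Arhgdib (ratio -1.18) were the lower members. WT stood above both libraries in 11 of the 12 higher blood genes. The part of blood cells in the endothelial ratios was not tested.

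The WT level, which took no part in the ratios, lay nearer one library or the other in a different way for each direction. Of the 371 higher genes WT lay nearer the library labelled Gata12KO in 301 (81.1%), and of the 410 lower genes in 220 (53.7%). Endothelial members behaved like the first set, with WT nearer the library labelled Gata12KO in 40 of 49. The lower mesenchymal members were divided, with 24 of 44 nearer the library labelled Gata12KO and 20 nearer SclKO. Twist2 (11.5 FPKM in WT), Snai2 (11.3) and Vcan (13.3) lay in between both libraries, whereas Foxf1 (0.722), Col3a1 (1.39) and Pdgfrb (2.39) were near or below the library labelled Gata12KO. These shares are descriptions, since each rests on the same 3 libraries.

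Outside the cell type lists, Hox genes were the class with the highest share of higher members, 10 of 15 tested and 0 lower, with a median of 1.33. This share was 66.7%, against 3.45% over all tested genes. A further 24 of the 39 measured Hox genes were not tested, and the median over all 39 was 0.09. Tested members such as Hoxd1, below 1 FPKM in SclKO, passed the filter only through the library labelled Gata12KO. Hoxb5 had 2.23 FPKM in SclKO (1.80 to 2.66) and 17.6 in the library labelled Gata12KO (16.7 to 18.5). All of the 7 tested members of the Hoxb cluster other than Hoxb7 (0.93) were higher, Hoxb1 to Hoxb6 and Hoxb8, with Hoxb2 at 3.39 and 16.7 FPKM and Hoxb8 at 1.14 and 7.30. In the Hoxd cluster Hoxd1 (0.234 and 4.91 FPKM), Hoxd3 (1.21) and Hoxd8 (1.93) were higher. The only tested Hoxc members, Hoxc8 and Hoxc9, had negative ratios of -0.67 and -0.83. Other homeobox and T-box genes, as gathered by symbol pattern, went the opposite way, with 11 of 27 tested members lower, 1 higher and a median of -0.80. The pattern leaves out some homeobox genes, among them Hhex, which was higher (8.67 and 35.8 FPKM), and Tlx1, which was lower (11.3 and 1.30). Lower members of the pattern outside the cardiac list included Pitx1 (15.3 and 3.47 FPKM), and Lhx6 was its higher member (0.142 and 5.43).

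**Figure D4:**
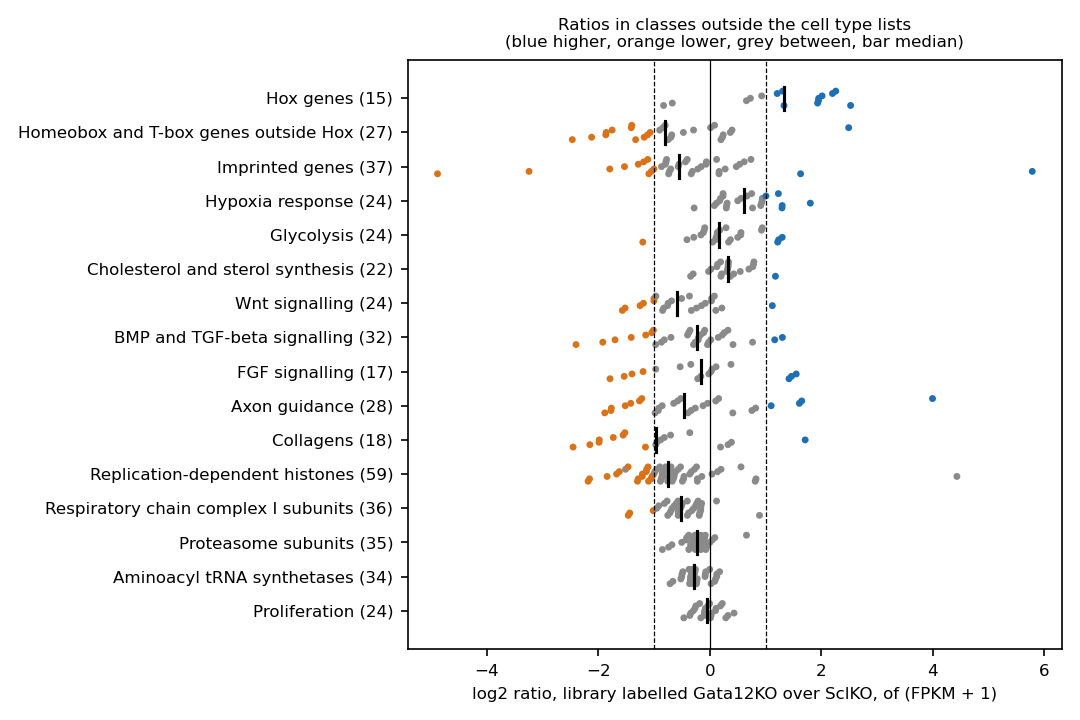
Ratio of every tested member of 16 gene classes outside the cell type lists (number tested in parentheses), with the same colours and median bars. Hox genes have a median of 1.33, other homeobox and T-box genes -0.80, and proliferation genes -0.06 with 0 of 24 called. The histone at the far right has overlapping bounds and was not called.

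Imprinted genes held the highest ratio of the comparison and some of its lowest. Grb10, an adaptor that dampens insulin and IGF receptor signalling, had 0.279 FPKM in SclKO (0.186 to 0.386) and 69.6 in the library labelled Gata12KO (67.9 to 71.3), against 46.1 in WT, the highest ratio of all called genes of at least 5 FPKM at 5.79. Near the other end, after the ribosomal protein copy Rpl34-ps1 (-5.07), lay Meg3 (-4.89), 1 of the maternally expressed noncoding RNAs of the Dlk1 and Meg3 locus. Meg3 had 50.7 FPKM in SclKO (48.5 to 52.9), 0.749 in the library labelled Gata12KO (0.549 to 0.953) and 18.4 in WT, Rian 12.1 and 0.384, and Mirg 2.96 and 0.140. Dlk1, expressed from the paternal copy of that locus, was lower as well (69.0 and 23.2). Zim1 was the other higher gene (0.107 and 2.42). Over the class, 10 of 37 tested members were lower and 2 higher, with a median of -0.55. These are shares of 27.0% and 5.41%, against 3.82% and 3.45% over all tested genes. The lean of the class rested on the deposited scale, since 3 were lower and 6 higher with equal sums over every entry.

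Genes of the hypoxia response were shifted up as a list. Of 24 tested members 5 were higher (20.8%, against 3.45% over all tested genes), 0 lower, 23 had a ratio above 0, and the median was 0.61. They were Ero1a, an oxidase of protein folding (28.8 and 103 FPKM), the pyruvate dehydrogenase kinase Pdk1 (17.9 and 45.4), adrenomedullin Adm (2.57 and 7.77), Ankrd37 (9.63 and 23.9) and Vegfa (37.3 and 76.0), so both the ligand Adm and its receptor Calcrl, and both Vegfa and its receptor Kdr, were higher. Of 24 glycolysis genes 3 were higher (12.5%) and 1 lower (4.17%, near the 3.82% over all tested genes), with a median of 0.16. The higher ones were Pdk1, the glucose transporter Slc2a3 (95.2 and 226 FPKM) and Pgk1 (405 and 944). Cholesterol synthesis genes had a median of 0.32 with 1 of 22 called, Idi1 (13.9 and 32.8), a share of 4.55% that is near the 3.45% over all tested genes. Proliferation genes gave 0 of 24 calls and a median of -0.06, the same as over all tested genes.

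Among signalling classes, lower calls prevailed over higher ones in the Wnt (6 and 1 of 24), BMP and TGF-beta (7 and 2 of 32) and axon guidance (7 and 4 of 28) lists, and FGF was mixed (4 and 3 of 17). Over all tested genes 3.82% were lower and 3.45% higher. This lean rested on the deposited scale. With equal sums over every entry, lower and higher calls were 0 and 1 for Wnt, 2 and 5 for BMP and TGF-beta, and 3 and 6 for axon guidance. BMP ligands went both ways. Bmp4 and Bmp5 (16.7 and 3.68 FPKM) were lower and Bmp6 was higher (0.240 and 1.78), while the matrix target Tgfbi was lower (20.2 and 3.01) and the receptor Tgfbr2 higher (3.81 and 10.9). Of Wnt genes, the inhibitors Dkk3 (6.46 and 1.60 FPKM) and Dkk1 (10.7 and 3.92) and the ligand Wnt2 (4.08 and 1.22) were lower and the agonist Rspo3 was higher (14.5 and 32.7). Of FGF genes, Fgfr3 (14.6 and 3.52 FPKM) was lower and Fgf10 (0.913 and 4.13) higher. Gap43, a growth cone protein placed in the guidance list, had 3.24 FPKM in SclKO (2.59 to 3.88), 66.7 in the library labelled Gata12KO (64.5 to 68.9) and 81.8 in WT. Epha4 (18.0 and 4.13) and the ephrin Efnb1 (8.99 and 1.92) were lower, and semaphorin Sema6a (2.66 and 10.5) was higher.

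Against 7.27% called over all tested genes, several large families held few calls or a like share. Proteasome subunits, aminoacyl tRNA synthetases, zinc finger proteins named Zfp and solute carriers had medians of -0.24, -0.28, 0.02 and 0.02. The first 2 had 0 calls among 35 and 34 tested members, and Zfp genes had 4 higher and 3 lower calls of 285. Solute carriers had 8 higher and 1 lower of 172, led by the zinc transporter Slc30a3 (1.22 and 24.7 FPKM). Of replication-dependent histones 17 of 59 were lower, with a median of -0.75, but their copies are near-identical and their transcripts short and without a poly(A) tail, so single histone genes are uncertain. Complex I subunits, which are short too, had a median of -0.52 with 3 of 36 lower, among them Ndufs5 (21.2 and 7.05).

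Of the 781 calls, 249 higher and 278 lower genes were in none of the lists or families. The highest, leaving out the targeted genes, unnamed gene models and small RNAs, were Ucn, the stress peptide urocortin (0.318 and 39.9 FPKM), Cavin1, a coat protein of caveolae (1.29 and 42.0), the leukotriene synthase Ltc4s (0.182 and 16.3), the growth factor Igf1 (0.219 and 16.5) and the transglutaminase Tgm2 (1.49 and 34.1). Eps8, an actin regulator (0.294 and 11.1), Ldb2 (1.78 and 23.3), the kinase Prkch (1.44 and 17.5) and Cyp26a1, which breaks down retinoic acid (5.45 and 43.6), followed. Gpihbp1, which holds lipoprotein lipase on capillaries, was listed at 0 in SclKO and had 6.91 FPKM (5.98 to 7.85). Cavin1, Gpihbp1 and Tgm2 had WT levels of 41.8, 6.42 and 37.1 FPKM, near those of the library labelled Gata12KO.

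The lowest genes in no list were Pdlim3, a LIM protein of actin fibres (14.9 and 1.00 FPKM), the tryptophan dioxygenase Tdo2 (53.3 and 8.27), the prostaglandin-degrading Hpgd (7.60 and 0.512), Hsd11b2, which inactivates glucocorticoids (75.9 and 13.3), the homeobox gene Tlx1 (11.3 and 1.30), chemerin Rarres2 (5.01 and 0.131), the sphingomyelinase Smpd3 (5.16 and 0.175) and Lypd6 (7.72 and 0.716). Rpl34-ps1, lower still at 81.5 and 1.46 FPKM, is a copy of a ribosomal protein gene, so its value is uncertain. Cic was called lower (5.22 and 3.54e-05 FPKM), but once entries without a symbol were joined to the genes they overlap its ratio was -0.17 and the call ended. Entries without a symbol are in none of the lists, the imprinted one included. An abundant entry of this kind, which overlaps Mir675, had 710 FPKM in SclKO, 86.1 in the library labelled Gata12KO and 1331 in WT. Its ratio was -3.03.

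Chromosome 8 was over the whole of its length lower than the rest. Of the 20 lowest genes named by size 6 lie on it, namely Pdlim3, Cdh11, Hpgd, Irx3, Hsd11b2 and Smpd3. Of 610 tested genes there, 50 (8.20%) were lower and 12 higher, 86.7% had a ratio below 0, and the median was -0.44. The medians of the other 19 chromosomes lay between -0.15 and 0.19, and their lower shares between 1.78% and 6.44%. The shift ran along the whole chromosome, with medians of -0.38, -0.39, -0.50 and -0.50 in 4 successive stretches of like gene number. Set beside WT, the chromosome 8 median was -0.01 in SclKO and -0.38 in the library labelled Gata12KO. The highest of the other chromosomes was 14, at 0.19 against SclKO and 0.18 against WT. The number of copies of these chromosomes in the lines was not tested. Chromosome 8 holds 8 of the tested endothelial members and 4 of the mesenchymal ones. Without it 46 endothelial members were higher and 5 lower, and 3 mesenchymal members were higher and 41 lower. With each chromosome's median subtracted, Cdh11 (-2.37), Irx3 (-2.03), Pdlim3 (-2.56), Hsd11b2 (-1.99) and Foxf1 (-1.13) stayed past the limit, Irx5 did not (-0.89), and Lyl1 (3.42) and Ushbp1 (3.13), which lie there too, moved farther up.

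**Figure D5:**
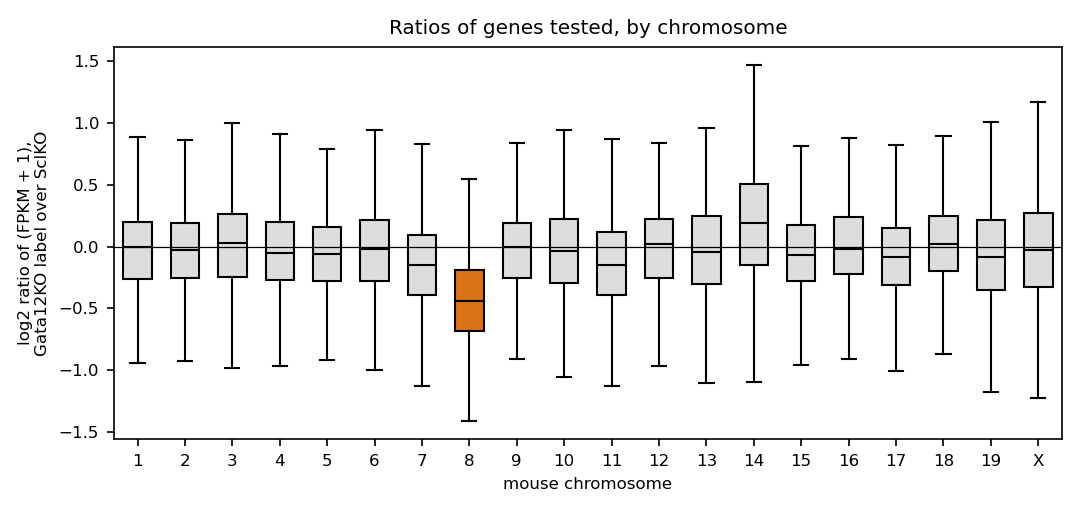
Ratios of tested genes by chromosome, as boxes of the middle 50% with the median line and whiskers to the last gene within 1.5 box lengths (outlying genes not drawn). Chromosome 8 (orange) has a median of -0.44, while the other 19 medians lie between -0.15 and 0.19.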

How the data were processed

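Day 4.75 embryoid body cells of each line were measured by RNA sequencing, with 50 nt reads per the labels' protocols. Tools listed, without roles, by the submitters' processing notes include TopHat2 2.0.4, Cufflinks 2.0.1 and the builds mm9 and hg19. Strand use in quantification is not stated there, so overlapping antisense genes cannot be told apart. The authors deposited FPKM with lower and upper bounds for 30123 RefSeq entries per library, kept as attributes of the transcript lines, and the bounds lie 2 Poisson standard deviations from each value. These other attributes per the file headers carry no raw counts, so no count test was run. Accessions were named from the RefSeq gene table (29030 of 29610) or GENCODE (173), with 407 named by neither, and 134 entries with conflicting symbols were left out. FPKM and bounds were summed per symbol. Ratios used a pseudocount of 1 FPKM, a minimum of 1 FPKM in either library, an exon sum of at least 300 nt and a 2-fold limit (Python 3.11.15, numpy 2.4.6, pandas 2.3.3, matplotlib 3.10.9). The rule was tested on simulated data. Members and lists (33 of symbols, 20 by pattern) were chosen with earlier results of these data known. Named genes are the targeted genes, the 20 highest and lowest called genes of at least 5 FPKM, any endothelial or mesenchymal member, up to 6 members of each other list with the largest ratios, and the 10 highest and lowest genes in no list. Named beyond that rule, after their values were seen, were Hoxb3, Hoxb4, Hoxb7, Hoxd3, Hoxc8, Hoxc9, Col4a1, Col4a2, Myh6, Myh7, Myl2, Ptprc, Klf1, Hba-x, Dkk1, Wnt2 and Fgf10 where outside it. Alternatives changed the pseudocount, the filters, the scaling, the length trend and the entry taken per gene, and 3 were added after seeing the data, namely joining of entries without a symbol, leaving out chromosome 8 and subtracting chromosome medians.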

Additional observations from a re-analysis of the deposited data

How the results depend on the processing

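The opposite signs of the endothelial and mesenchymal medians held under each of the 13 alternatives run. The endothelial median ranged from 0.64 with no minimum FPKM to 1.54 with equal sums over every entry. The mesenchymal median was -0.47 with no minimum FPKM, -0.49 with equal sums over every entry and -1.49 with a pseudocount of 0.1, against -1.06 as reported. Equal sums over every entry, which raise the median gene, gave 2143 higher and 114 lower genes, 82 higher and 1 lower endothelial members and 19 lower mesenchymal members. A pseudocount of 0.1 gave 674 lower genes. Of the 240 calls of named genes, 55 were lost with equal sums over every entry, 10 with the length trend subtracted, 7 with equal sums over transcripts of 300 nt or longer, 5 with chromosome medians subtracted, and 0 changed sign in any alternative. Foxc1 (-0.94), Has2 (-0.92) and Lrp1 (-0.92) were lost with equal sums over 300 nt or longer, and Thy1 (-0.95) and S100a4 (-0.63) with the length trend subtracted. No paired analysis was possible because each group has 1 library. The bounds leave out differences between cultures and preparations, which 1 library a side cannot show, and low genes are limited by the pseudocount.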
